A study of Mus musculus with 37 samples.

Results

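Serotonin is made from tryptophan by neurons of the raphe nuclei of the brainstem, which send axons through most of the brain. Tph2 encodes the neuronal tryptophan hydroxylase, the rate-limiting enzyme of serotonin synthesis, and Slc6a4 encodes the plasma membrane serotonin transporter that takes released serotonin back up. Fev (also called Pet-1) is the ETS-domain transcription factor that maintains serotonin neuron identity. Tph1 encodes the tryptophan hydroxylase of the pineal gland and of peripheral tissue, and Slc22a3 encodes the organic cation transporter OCT3, a low-affinity carrier of serotonin and other monoamines that is also found outside serotonin neurons.

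These 5 genes were taken by gene symbol from the 57180 genes in the 2 count tables of the series, and each symbol matched a single row. The list was selected on levels of these genes measured in the same libraries, between models and between old and young mice, so their levels and differences are given as a description and not as independent evidence. Each library held mRNA from the ventral midbrain, bound to GFP-tagged ribosomes and pulled down with an antibody to GFP (translating ribosome affinity purification, TRAP). DAT;NuTRAP mice express the tagged ribosomal protein L10a wherever Cre is driven by the dopamine transporter gene Slc6a3, and VGAT;NuTRAP mice wherever Cre is driven by the vesicular GABA transporter gene Slc32a1. All mice carried the NuTRAP transgene, and the labels give each library a Cre driver, an age, a sex and a batch. The tissue was cut from slices of the ventral midbrain with the pons trimmed away. Whether the cut tissue held raphe neurons was not tested.

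The DAT;NuTRAP libraries came from 10 young mice (8 to 10.5 months) and 9 old mice (21 months), and the VGAT;NuTRAP libraries from 10 young mice (7 to 9 months) and 8 old mice (21 months, with 1 female of 24 months). Both sexes and both batches named in the labels were present in every age group. Libraries held between 13841253 and 38235015 counts. The DAT;NuTRAP libraries of the second batch detected 14323 to 18170 genes, against 19085 to 21051 in those of the first batch, at overlapping depth. No pair of libraries within a group of the same model, age and sex agreed within sampling noise (70 pairs, lowest chi-square per degree of freedom 5.22). The label genes followed the labels: Th, the rate-limiting enzyme of dopamine synthesis, reached 2319 to 4515 CPM (counts scaled to a common library size with TMM factors) in DAT;NuTRAP and 146 to 539 CPM in VGAT;NuTRAP. Gad1, which makes GABA, reached 53.6 to 253 CPM in DAT;NuTRAP and 1388 to 2282 CPM in VGAT;NuTRAP.

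In the GRCm39 assembly the genes lie apart from each other on 5 chromosomes. Tph2 (ENSMUSG00000006764) spans chr10:114914546-115020927 on the minus strand and Slc6a4 (ENSMUSG00000020838) spans chr11:76888903-76923169 on the plus strand. Fev (ENSMUSG00000055197) spans chr1:74920668-74924578, Tph1 (ENSMUSG00000040046) chr7:46294065-46321965 and Slc22a3 (ENSMUSG00000023828) chr17:12637847-12726614, all on the minus strand. Because Tph2 and Slc6a4 varied together over libraries, their promoters are shown with that of Fev, a regulator of both. Each line gives the 250 bases before the RefSeq start site in the build GRCm38.p6, which is older than the build of the count tables, and capitals mark GGAA or its reverse complement TTCC, the core that ETS factors read.
Tph2: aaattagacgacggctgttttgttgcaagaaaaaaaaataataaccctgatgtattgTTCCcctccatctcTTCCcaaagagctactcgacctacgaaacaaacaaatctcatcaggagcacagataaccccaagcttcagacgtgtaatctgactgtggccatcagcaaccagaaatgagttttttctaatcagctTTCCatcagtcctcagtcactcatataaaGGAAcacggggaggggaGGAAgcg
Slc6a4: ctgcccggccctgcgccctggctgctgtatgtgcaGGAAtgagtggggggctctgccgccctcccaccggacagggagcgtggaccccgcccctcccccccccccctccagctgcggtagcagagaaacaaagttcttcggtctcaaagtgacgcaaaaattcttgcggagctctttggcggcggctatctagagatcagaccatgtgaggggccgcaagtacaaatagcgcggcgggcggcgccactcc
Fev: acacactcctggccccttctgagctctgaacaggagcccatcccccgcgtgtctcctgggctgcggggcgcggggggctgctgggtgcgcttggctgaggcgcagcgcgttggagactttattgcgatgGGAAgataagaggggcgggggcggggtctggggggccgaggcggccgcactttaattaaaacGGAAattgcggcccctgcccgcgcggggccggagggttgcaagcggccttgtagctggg
These windows are chr10:115185023-115185272 (minus strand) for Tph2, chr11:76998347-76998596 (plus strand) for Slc6a4 and chr1:74885409-74885658 (minus strand) for Fev. The core was found 5 times upstream of Tph2, 1 time upstream of Slc6a4 and 2 times upstream of Fev, and 93.4% of 32851 mouse promoters of the same length held it at least once on either strand. The GATA core, GATAA or its reverse complement TTATC, was found 1 time each in the Tph2 and Fev windows and not in the Slc6a4 window, against 22.6% of all promoters, and overlapped no GGAA match. The Tph2 window was 43.6% G or C, against 64.8% for Slc6a4 and 68% for Fev. A match is a description of letters and not a binding site.

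Tph2 was the most abundant of the 5 genes in both models when levels were set per kilobase of annotated exon. In DAT;NuTRAP its level was 3.75 ± 3.33 CPM per kilobase (mean ± SD, n = 19), followed by Slc6a4 at 0.531 ± 0.557, Fev at 0.267 ± 0.435, Slc22a3 at 0.213 ± 0.199 and Tph1 at 0.0206 ± 0.0498. In VGAT;NuTRAP the order was Tph2 at 1.6 ± 1.42 CPM per kilobase (n = 18), Slc6a4 at 0.281 ± 0.349, Slc22a3 at 0.28 ± 0.138, Fev at 0.257 ± 0.198 and Tph1 at 0.0116 ± 0.0131. Slc6a4, Fev and Slc22a3 did not differ beyond their spread in either model. Against the Th and Gad1 levels above, all 5 genes were rare messages.

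Tph2 was detected in all 37 libraries. In DAT;NuTRAP young mice it ranged from 1.75 CPM through a median of 9.41 to 36.2 CPM, and in old mice from 1.96 through 6.39 to 17.0 CPM. In VGAT;NuTRAP young mice it ranged from 1.04 through a median of 2.24 to 5.16 CPM, and in old mice from 2.33 through 6.38 to 15.1 CPM. By mean level the groups ran from DAT;NuTRAP young (13.3 ± 11.9 CPM, SD, n = 10) through DAT;NuTRAP old (8.02 ± 5.58, n = 9) and VGAT;NuTRAP old (7.05 ± 4.98, n = 8) to VGAT;NuTRAP young (2.63 ± 1.66, n = 10), and each group overlapped its neighbours in this order. The spread was widest among DAT;NuTRAP young libraries, whose SD was close to their mean.

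Slc6a4 had no read in some libraries and over 100 reads in others. In DAT;NuTRAP young mice it ranged from 0 through a median of 0.949 to 8.66 CPM, with no read in 4 of 10 libraries, and in old mice from 0 through 3.4 to 7.91 CPM, with no read in 3 of 9. In VGAT;NuTRAP young mice it ranged from 0 through a median of 0.64 to 1.99 CPM, with no read in 3 of 10 libraries, and in the 8 old mice from 0.0439 through 1.78 to 6.17 CPM. A library without a read could still have held up to 0.0814 to 0.178 CPM in DAT;NuTRAP and 0.128 to 0.157 CPM in VGAT;NuTRAP, which is what 3 counts come to at each library's depth and covers counting error only.

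Fev and Tph1 were close to the limit of detection. Fev, the serotonin neuron regulator, ranged from 0 to 2.17 CPM in DAT;NuTRAP, where 11 of 19 libraries had at most 1 read, and from 0 to 1.18 CPM in VGAT;NuTRAP, where 15 of 18 libraries had more than that. Tph1 had no read in 13 of 19 DAT;NuTRAP and 9 of 18 VGAT;NuTRAP libraries, and its highest levels, 1.10 and 0.879 CPM, came from DAT;NuTRAP young male replicates 3 and 4. These were also 2 of the 4 DAT;NuTRAP libraries with most Tph2, at 36.2 and 20.1 CPM. Slc22a3 was detected in every VGAT;NuTRAP library, from 0.466 to 2.72 CPM, and was between 0 and 3.76 CPM in DAT;NuTRAP, with no read in 3 of 19.

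**Figure D1:**
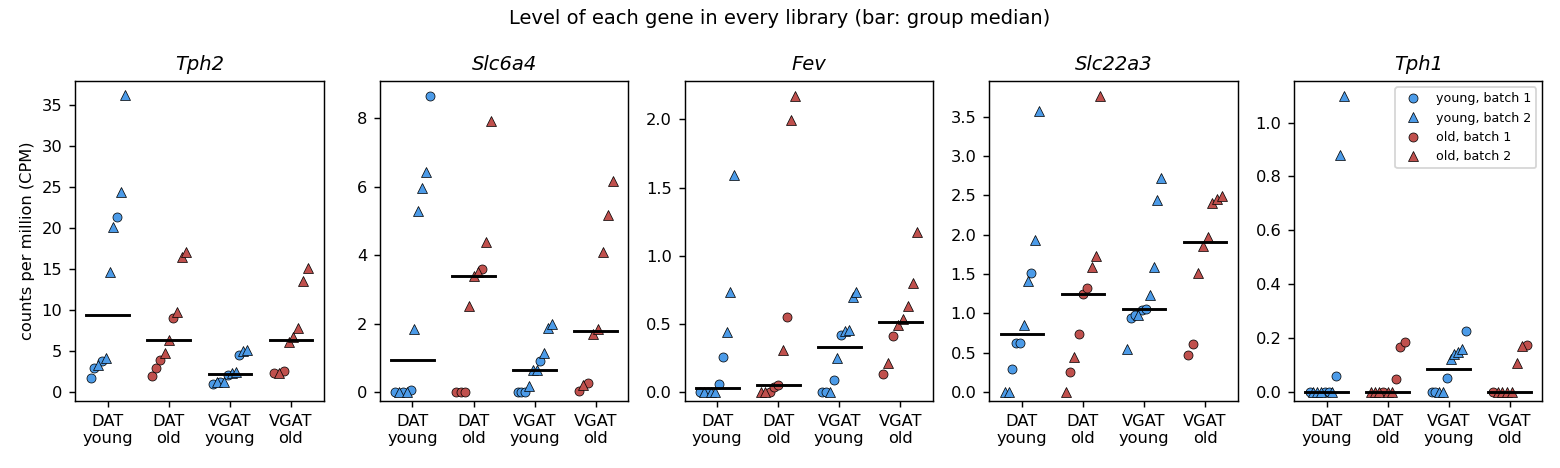
Level in CPM (linear vertical axis, a separate scale for each gene) of the 5 genes in every library of the 2 models, young in blue and old in red, with circles for the first batch, triangles for the second and a bar at the group median. Tph2 reached 36.2 CPM in DAT;NuTRAP young mice and stayed at or below 5.16 CPM in VGAT;NuTRAP young mice, and Slc6a4 was at or near 0 in part of the libraries of each model.

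Between the models, Tph2 was lower in VGAT;NuTRAP than in DAT;NuTRAP libraries of young mice. All 10 VGAT;NuTRAP young libraries had at most 5.16 CPM, and 5 of 10 DAT;NuTRAP young libraries had 14.6 CPM or more while the other 5 lay between 1.75 and 4.18 CPM, so the groups overlapped. The log2 difference, VGAT;NuTRAP minus DAT;NuTRAP, was -2.21 ± 0.47 (SE), a 4.63-fold lower level (edgeR quasi-likelihood test across all genes with Benjamini-Hochberg adjustment and batch as a term, adjusted p = 0.000141). It was the only 1 of the 4 genes tested that passed the threshold of 0.05 in young mice, where 49.8% of 16898 genes did, and nothing is read from that count. By DESeq2 it was also 1 of 4, with 8802 genes called in all. Fewer cells with Tph2 mRNA in a library and less of it per cell cannot be told apart in these bulk libraries, and which cells the reads came from was not tested. Within the first batch the difference was -1.73 ± 0.82 (adjusted p = 0.136) and within the second -2.55 ± 0.57 (adjusted p = 0.000722).

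Slc6a4 had a similar difference in young mice with a larger error. It was -2.34 ± 1.05 (adjusted p = 0.0605), and it passed the threshold under a stricter count filter of 30 (adjusted p = 0.0482) and when any 1 of 6 libraries was left out. These were the 4 DAT;NuTRAP young libraries with no read of Slc6a4, DAT;NuTRAP old female replicate 1 and VGAT;NuTRAP young female replicate 2. Leaving out a library without a read raises the mean of its group. Without DAT;NuTRAP young male replicate 1, whose Slc6a4 level of 8.66 CPM was the highest of all libraries, the difference was -0.78. Fev (0.16 ± 0.97) and Slc22a3 (0.33 ± 0.60) differed by less than their standard errors in young mice.

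In old mice the models lay closer together. Tph2 differed by -0.40 ± 0.49 (adjusted p = 0.539), Slc6a4 by -0.59 ± 1.08, Fev by -0.09 ± 1.02 and Slc22a3 by 0.23 ± 0.66. None of the 4 genes tested passed the threshold by edgeR or by DESeq2, and none had an unadjusted p below 0.05, where 46.8% of 16898 genes passed by edgeR. Markers of other cells also differed between the models. The summed level of 5 astrocyte markers was 118 to 523 CPM in DAT;NuTRAP and 51.7 to 184 CPM in VGAT;NuTRAP, and all 5 were called lower in VGAT;NuTRAP in both age groups. The part of such cells in the Tph2 difference was not tested.

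With age, the fitted difference of Tph2 was above 0 in VGAT;NuTRAP and below 0 in DAT;NuTRAP mice, and neither passed the threshold. In VGAT;NuTRAP mice, 5 of 8 old libraries (6.08, 6.67, 7.78, 13.5 and 15.1 CPM) lay above the highest young library (5.16 CPM), and the other 3 lay inside the young range. The log2 difference, old minus young, was 1.19 ± 0.45, or 2.28-fold higher (adjusted p = 0.784). Within the second batch it was 1.57 ± 0.51 (6 old, 6 young) and within the first 0.12 ± 0.56 (2 old, 4 young). Slc6a4 had a difference of 1.18 ± 0.77 (2.27-fold), and 3 of 8 old libraries (4.09, 5.16 and 6.17 CPM) lay above the highest young library (1.99 CPM). Fev was at 0.67 ± 0.57 and Slc22a3 at 0.09 ± 0.30. None of the 4 genes tested was called by edgeR or DESeq2, and only Tph2 had an unadjusted p below 0.05. Across all genes edgeR called 0.0256% of 15607, or 4 genes, and DESeq2 called 23.

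Markers of other cells also had age differences in the same VGAT;NuTRAP libraries. All 4 cholinergic neuron markers were lower in old mice, with a median log2 difference of -1.51, none called, and a summed level of 1.09 to 41.9 CPM in young and 0.789 to 14.1 CPM in old mice. All 5 astrocyte markers were higher, with a median of 0.32, none called, and a summed level of 51.7 to 94.4 CPM in young and 71.6 to 184 CPM in old mice. Oligodendrocyte markers were higher for 5 of 5 (median 0.27), endothelial for 3 of 4 (0.21), microglia for 4 of 7 (0.10) and dopamine neuron markers for 4 of 5 (0.19). All 3 GABA neuron markers were lower (median -0.05). The 8 serotonin neuron markers, which include Tph2, Slc6a4 and Fev, were all higher (median 0.32), against 1 of 7 tested in DAT;NuTRAP (median -0.20). Tph2, Slc6a4 and Fev were selected on these same libraries, and dopamine neurons also use Ddc, Slc18a2 and Lmx1b. The count is thus a description and not separate evidence. None of these markers was called, and the part of other cells in the Tph2 values was not tested. The summed level of 4 noradrenaline neuron markers, which would mark the locus coeruleus behind the midbrain, was at most 0.338 CPM in any library of the series. That of 7 mast cell markers, another serotonin-making cell, was at most 0.678 CPM. The pulldown takes ribosomes tagged in cells with Cre, so low sums do not show that such cells were absent from the tissue. Whether tissue from behind the midbrain was included was not tested.

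In DAT;NuTRAP mice the old and young ranges of Tph2 overlapped, and the 4 highest libraries (20.1, 21.4, 24.4 and 36.2 CPM) were all from young mice, while the highest old libraries had 16.4 and 17.0 CPM. The log2 difference was -0.70 ± 0.51, or 1.63-fold lower (adjusted p = 1). Slc6a4 (-0.28 ± 1.23) and Slc22a3 (0.21 ± 0.86) differed by less than their standard errors. None of the 3 genes tested was called by edgeR or DESeq2, and none had an unadjusted p below 0.05. Across all genes edgeR called 0.00672% of 14889, or 1 gene, and DESeq2 called 12. Within the first batch the Tph2 difference was -0.75 ± 0.90 and within the second -0.67 ± 0.58. Markers of other cells had age differences here too, none called. Microglia markers were higher in old mice for 6 of 7 genes (median log2 difference 0.89, summed level 11.4 to 43.7 CPM in young and 16.7 to 97.7 CPM in old mice) and astrocyte markers for 5 of 5 (median 0.49, 118 to 291 CPM and 205 to 523 CPM). Oligodendrocyte markers were higher for 5 of 5 (median 0.37) and endothelial markers for 4 of 4 (median 0.30), and the part of these cells in the Tph2 values was not tested. Leaving out DAT;NuTRAP young male replicate 1 (10.5 months, 21.4 CPM of Tph2) changed the Tph2 difference to -0.20 and turned the Slc6a4 difference to 1.49.

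The age difference of Tph2 was larger in VGAT;NuTRAP than in DAT;NuTRAP mice by 1.81 ± 0.67 on the log2 scale, with an unadjusted p of 0.0105 and an adjusted p of 1 by edgeR. That of Slc6a4 was larger by 1.75 ± 1.45, and by -0.27 without DAT;NuTRAP young male replicate 1. None of the 4 genes tested was called by edgeR or DESeq2 and 1, Tph2, had an unadjusted p below 0.05. Over all 16898 genes edgeR called 0%, with 467 genes at an unadjusted p below 0.05, and DESeq2 called 1.

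**Figure D2:**
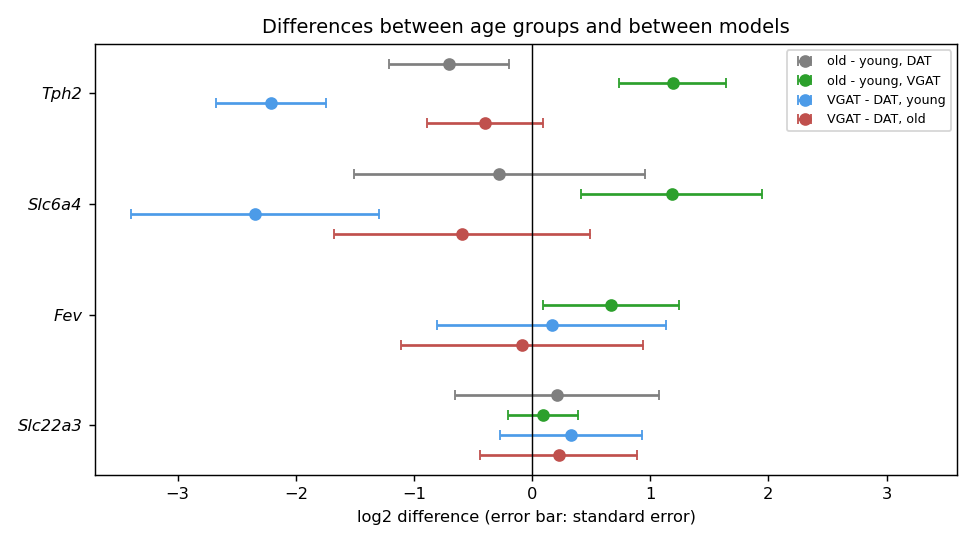
Log2 differences (horizontal axis) of the 4 genes that passed the count filter, with standard errors as bars, between old and young mice in each model and between the models in each age group. Fev did not pass the filter in DAT;NuTRAP alone and has no point there. Tph2 stood at -2.21 between the models in young mice and at -0.40 in old mice.

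Females and males were also fitted separately. In VGAT;NuTRAP males Tph2 was at 1.04, 2.41, 5.05 and 5.16 CPM in the 4 young and 2.54, 13.5 and 15.1 CPM in the 3 old mice, so the groups overlapped only through the first-batch old library. The log2 difference was 1.67 ± 0.29, or 3.19-fold (edgeR adjusted p = 0.163, unadjusted p = 6.17e-05), and DESeq2 called it with an adjusted p of 0.000192, as 1 of 19 genes. Slc6a4 stood at 0, 1.13, 1.88 and 1.99 CPM in young and 0.0439, 5.16 and 6.17 CPM in old males, a difference of 1.81 ± 0.43 (adjusted p = 0.667). By edgeR none of the 4 genes tested was called, 2 had an unadjusted p below 0.05, and 0.0315% of 15875 genes were called.

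In VGAT;NuTRAP females Tph2 was at 1.18, 1.21, 1.23, 2.10, 2.37 and 4.53 CPM in the 6 young and 2.33, 2.33, 6.08, 6.67 and 7.78 CPM in the 5 old mice. The difference was 1.33 ± 0.55, or 2.51-fold (adjusted p = 0.887), and that of Slc6a4 was 1.53 ± 1.11. None of the 4 genes tested was called by edgeR or DESeq2, with 1 at an unadjusted p below 0.05 and 0.032% of 15617 genes called by edgeR. Whether the sexes differed in the size of these age differences was not tested.

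In DAT;NuTRAP males Tph2 was at 1.75, 4.18, 20.1, 21.4 and 36.2 CPM in the 5 young and 1.96, 2.91, 3.91, 6.39 and 9.72 CPM in the 5 old mice. The difference was -1.63 ± 0.66 (adjusted p = 0.905) and that of Slc6a4 was -2.66 ± 2.03, which became -0.04 without young male replicate 1. In DAT;NuTRAP females Tph2 was at 2.97, 3.35, 3.83, 14.6 and 24.4 CPM in the 5 young and 4.78, 9.07, 16.4 and 17.0 CPM in the 4 old mice, a difference of 0.34 ± 0.50 (adjusted p = 1), with Slc6a4 at 2.46 ± 1.47. None of the 3 genes tested was called in either sex by edgeR or DESeq2, and 1 had an unadjusted p below 0.05 in males. EdgeR called 0% of 15789 genes in males and 0% of 14839 in females, with 868 and 601 genes at an unadjusted p below 0.05, where DESeq2 called 7 and 31.

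Tph2 and Slc6a4 varied together from library to library in VGAT;NuTRAP mice. In VGAT;NuTRAP the correlation of log2(CPM + 0.1) over 18 libraries was r = 0.866 (Pearson, permutation p = 1e-05, the smallest that 100000 resamples can give, adjusted p = 0.0001 over 10 pairs of genes) and rho = 0.884 (Spearman, permutation p = 1e-05). Without the 2 libraries farthest from the median of Tph2 it was r = 0.81. It was r = 0.834 within the 6 libraries of the first batch (exact permutation p = 0.05) and r = 0.91 within the 12 of the second (permutation p = 3e-05). After the age group and batch means were removed it was r = 0.885 (permutation p = 1e-05). The coefficient was thus of like size within the second batch and after the age groups were set level. In the first batch 4 of 6 libraries had at most 1 read of Slc6a4. The coefficient there rests on few libraries with reads, and its adjusted p was 0.167.

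In DAT;NuTRAP the libraries fell into separate clusters on Slc6a4, so no coefficient over all 19 is given. The 8 libraries with at most 1 read of Slc6a4 had 1.75 to 4.18 CPM of Tph2, and the 11 libraries with 30 reads or more (1.84 to 8.66 CPM of Slc6a4) had 4.78 to 36.2 CPM of Tph2, so the ranges of Tph2 did not meet. Of the former, 6 were of the first batch and 2 of the second, and 5 were young and 3 old. Within the 11 libraries the correlation was r = 0.421 (permutation p = 0.197, adjusted p = 0.449) and rho = 0.436 (permutation p = 0.183), and r = 0.166 without the 2 farthest, so a relation inside that cluster was not shown. Within its 9 second-batch libraries it was r = 0.351 (exact permutation p = 0.352), and the first batch held too few.

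The ratio of Tph2 to Slc6a4 reads was also read in each library. Among libraries with at least 10 reads of Slc6a4, there were 1.82 to 13.3 reads of Tph2 for each read of Slc6a4 in 11 DAT;NuTRAP libraries, with a median of 2.52, and 1.85 to 5 in 11 VGAT;NuTRAP libraries, with a median of 2.69. These are reads without correction for gene length, and libraries with few Slc6a4 reads were left out, so the ranges describe only these 22 libraries.

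**Figure D3:**
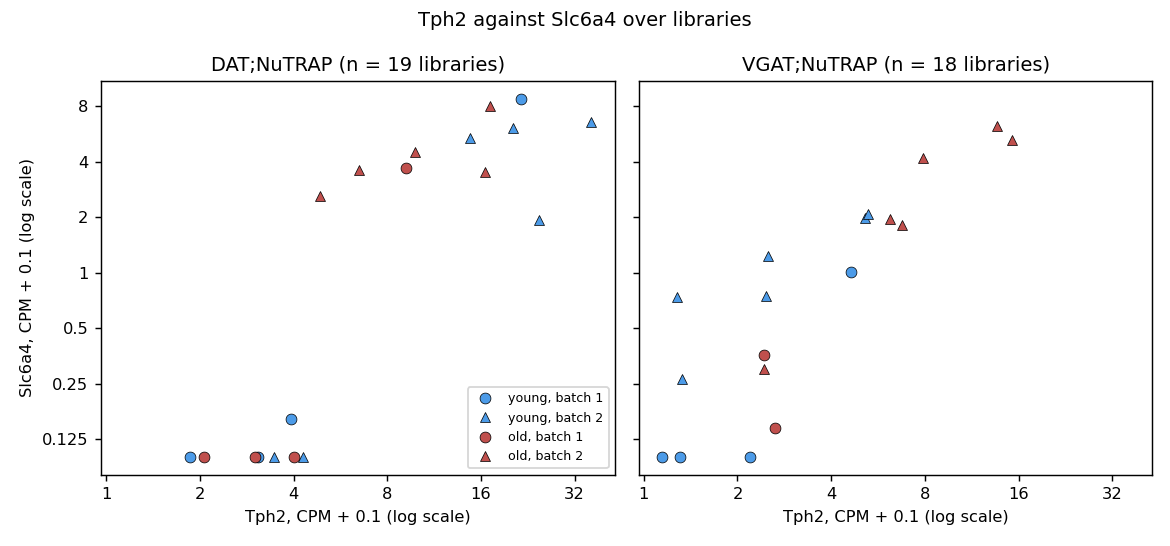
Tph2 (horizontal) against Slc6a4 (vertical), each as CPM + 0.1 on a log scale, with 1 point for each library, young in blue and old in red, circles for the first batch and triangles for the second. In VGAT;NuTRAP the 18 points form a band (r = 0.866), and in DAT;NuTRAP the 8 libraries near 0 Slc6a4 all lie at or below 4.18 CPM of Tph2.

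Fev was set against Tph2 in the same way. In DAT;NuTRAP 11 of 19 libraries had at most 1 read of Fev, so the coefficient depends on how such libraries are scaled. Their correlation over the 19 libraries was r = 0.623 (permutation p = 0.0048, adjusted p = 0.048) with rho = 0.609 (permutation p = 0.00713, adjusted p = 0.0713). It fell to r = 0.528 (permutation test, adjusted p = 0.162) when 1 in place of 0.1 was added to the CPM. Without the 2 farthest libraries it was r = 0.518 (adjusted p = 0.165). It was r = 0.852 within the first batch and r = 0.49 within the second. In VGAT;NuTRAP it was r = 0.37 (permutation p = 0.131, adjusted p = 0.262) with rho = 0.353. It was r = 0.882 within the 6 libraries of the first batch (exact permutation p = 0.0361, adjusted p = 0.167). Within the 12 of the second no relation was seen (r = -0.04, permutation p = 0.909), and neither batch passed after adjustment. Fev and Slc22a3 correlated in VGAT;NuTRAP at r = 0.617 (permutation p = 0.00677, adjusted p = 0.0338) with rho = 0.713 and r = 0.656 without the 2 farthest libraries. Within the 12 libraries of the second batch that relation was r = 0.733 (permutation p = 0.0119, adjusted p = 0.0595), and within the 6 of the first it had the opposite sign (r = -0.50, exact permutation p = 0.283). After the age group and batch means were removed it was r = 0.396 (permutation p = 0.104, adjusted p = 0.347) and did not pass. In DAT;NuTRAP the same pair was at r = -0.246 (adjusted p = 0.449). None of the other 7 pairs passed in VGAT;NuTRAP (r from -0.016 to 0.513, lowest adjusted p = 0.0983) or in DAT;NuTRAP (r from -0.495 to 0.387, lowest adjusted p = 0.413), with pairs that include Slc6a4 taken over the 11 libraries. Slc22a3 showed no relation to Tph2, at r = 0.226 in VGAT;NuTRAP and r = -0.0358 in DAT;NuTRAP.

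Ranked by likeness to Tph2 over libraries, after the age group and batch means were removed, Slc6a4 came first among 15606 other genes in VGAT;NuTRAP. In DAT;NuTRAP it was left out of this ranking, since its libraries fall into clusters. Since all these genes share the same libraries, the ranks are a description. In VGAT;NuTRAP Slc6a4 was followed by Penk (r = 0.84), the enkephalin precursor, which was an abundant message at 79.6 to 189 CPM. After it came Gorab, Syt15, Col23a1, Acadl, Zbtb12 and B430105G09Rik (r from 0.76 to 0.795). In DAT;NuTRAP the closest others were Gm28756, Hcar1, Tcf7l1, Fkbp10, Bloc1s5, Slc39a1 and Rbm14 (r from 0.725 to 0.767).

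Among the other genes enriched in serotonin neurons, Slc17a8, the vesicular glutamate transporter VGLUT3 that many raphe serotonin neurons carry, stood closest to Tph2. It ranked 18 of 15606 in VGAT;NuTRAP (r = 0.708) and 62 of 14888 in DAT;NuTRAP (r = 0.606). Its own level ran from 0.77 through a median of 4.19 to 8.68 CPM in VGAT;NuTRAP young mice and from 1.36 through 8.26 to 13.6 CPM in old mice, with an age difference of 0.42 ± 0.42. Others of that list were mixed. In VGAT;NuTRAP Htr1a (r = 0.285) and Htr5b (r = 0.248) were above 0, and Htr1b (r = -0.116), Trh (r = -0.125) and Met (r = -0.0875) below. In DAT;NuTRAP Met (r = 0.312), Trh (r = 0.148), Htr5b (r = 0.0548) and Htr1b (r = 0.00487) were above 0, and Htr1a (r = -0.162) below. The GATA factors that act in serotonin neuron development were less close than Slc17a8, with Gata2 at r = 0.598 and Gata3 at r = 0.458 in VGAT;NuTRAP and at r = 0.163 and r = 0.532 in DAT;NuTRAP. Before the age group and batch means were removed, Gata2 was at r = -0.082 and Gata3 at r = -0.101 in VGAT;NuTRAP. Of the same list, En2 was at r = 0.488 in VGAT;NuTRAP and r = 0.382 in DAT;NuTRAP. Foxa2 was at r = 0.354 and r = 0.370, and Foxa1 at r = -0.139 and r = -0.148. Nkx2-2, another factor of the list, ran against Tph2 in both models (r = -0.557 and r = -0.503), as did the receptor gene Crhr2 in VGAT;NuTRAP (r = -0.614). Lmx1b, which serotonin and dopamine neurons share, was at r = -0.121 and r = 0.189. Neither Ddc (r = -0.148 and r = -0.143), the decarboxylase of both monoamine pathways, nor the vesicular loader Slc18a2 (r = -0.121 and r = -0.211) followed Tph2. Of the listed cofactor genes, Spr (r = 0.472 and r = 0.222) and Pcbd1 (r = 0.313 and r = 0.312) were above 0 in both models. Slc22a3 had other neighbours. Those most like it were Tug1 (r = 0.908), Prob1 and Cggbp1 in VGAT;NuTRAP and Sgk3 (r = 0.86), Gm26631 and Tifa in DAT;NuTRAP.

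**Figure D4:**
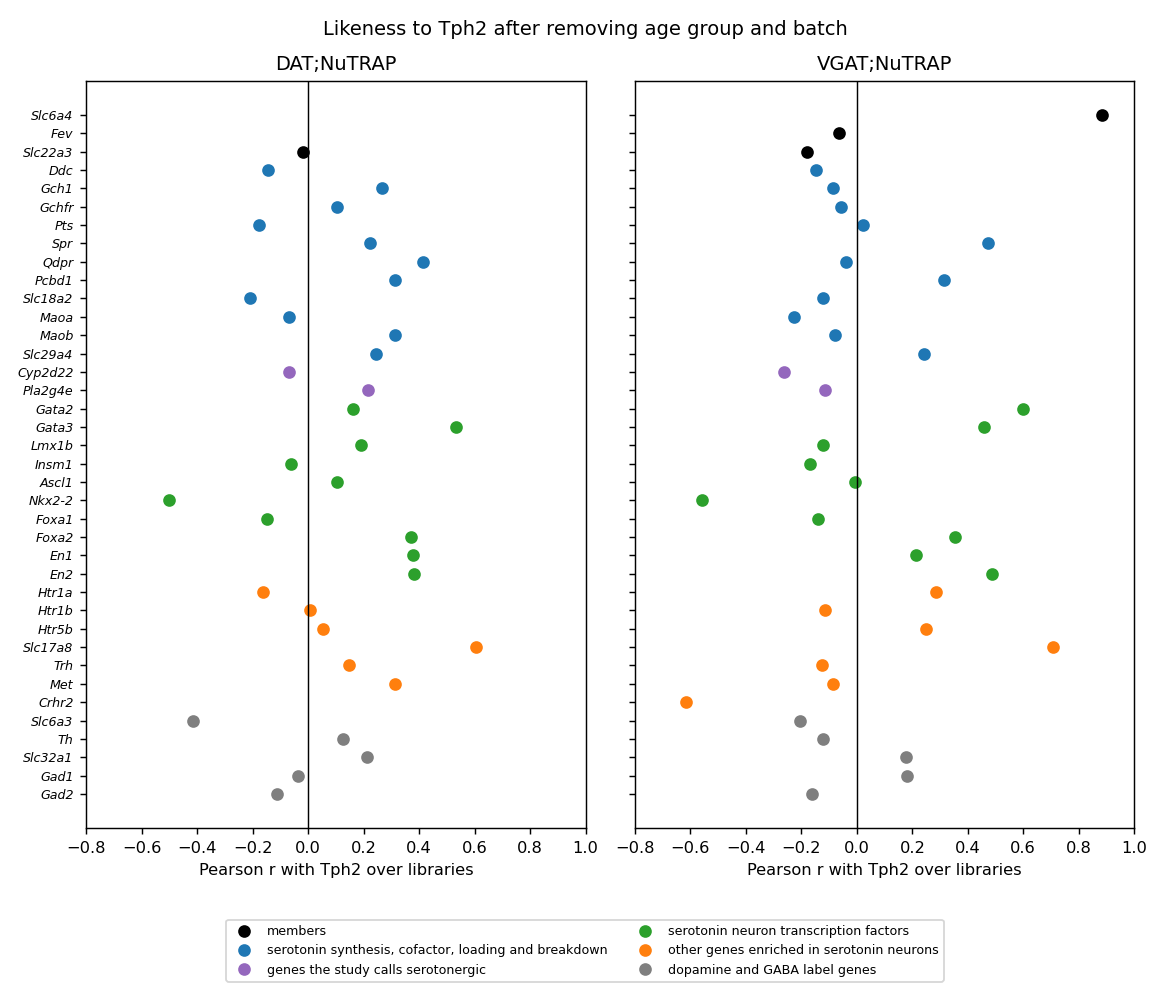
Pearson correlation with Tph2 over 19 DAT;NuTRAP (left) and 18 VGAT;NuTRAP libraries (right), on log2(CPM + 0.1) after removing age group and batch means, for the listed serotonin genes (vertical axis) coloured by list, with dopamine and GABA label genes in grey. Slc6a4 in DAT;NuTRAP is left out because its libraries fall into clusters. Slc17a8 stood at 0.708 in VGAT;NuTRAP and 0.606 in DAT;NuTRAP. The genes of synthesis, cofactor, loading and breakdown ran from -0.228 (Maoa) to 0.472 (Spr) in VGAT;NuTRAP and from -0.211 (Slc18a2) to 0.412 (Qdpr) in DAT;NuTRAP.

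The rest of the serotonin pathway was compared from lists of known genes. Of 14 genes for aromatic amino acid decarboxylation, the tetrahydrobiopterin cofactor, vesicular loading, uptake and breakdown, 11 passed the filter, and Slc22a2, Asmt and Aanat did not. With age in VGAT;NuTRAP mice 9 of the 11 were higher and 2 lower, with a median log2 difference of 0.05 against 0 over all genes (-0.00094), and none was called. In DAT;NuTRAP mice 2 were higher and 9 lower, with a median of -0.09, and none was called. The cofactor gene Gchfr, which encodes a regulator of GTP cyclohydrolase, had the largest of these values in VGAT;NuTRAP at 1.04 ± 0.36 (adjusted p = 0.732).

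Between the models 9 of the 11 were called lower and 1 higher in VGAT;NuTRAP, in young and in old mice, against 49.8% and 46.8% of all genes called in either direction. Many of these genes are used by dopamine neurons as well. In young mice Ddc differed by -3.02 ± 0.16 (adjusted p = 9.11e-18), Slc18a2 by -2.85 ± 0.16 (adjusted p = 4.49e-17) and Gch1, the first enzyme of cofactor synthesis, by -3.30 ± 0.13 (adjusted p = 3.61e-23). Slc29a4, a plasma membrane monoamine transporter, was the gene that was higher, by 1.35 ± 0.13 (adjusted p = 1.62e-11). Of 10 transcription factors of serotonin neurons, 3 were called higher in VGAT;NuTRAP and 6 lower in young mice, where of all 16898 genes 4295 were called higher and 4112 lower. Gata3 was higher by 3.02 ± 0.24 (adjusted p = 1.24e-13), and Lmx1b (-2.64 ± 0.16, adjusted p = 1.16e-16) and En1 (-2.63 ± 0.16, adjusted p = 1.87e-16) were lower. Of 7 other genes enriched in serotonin neurons, 4 were called higher, led by the serotonin receptors Htr1b (3.04 ± 0.44, adjusted p = 4.13e-07) and Htr1a (2.51 ± 0.25, adjusted p = 1.6e-10), and none lower, a share near the 49.8% of all genes. Levels of Htr1a were 3.52 to 11.3 CPM in DAT;NuTRAP young and 31.8 to 55.6 CPM in VGAT;NuTRAP young mice, without overlap.

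With age in VGAT;NuTRAP mice 7 of the 10 transcription factors were higher and 3 lower, and 4 of the 7 other enriched genes were higher and 3 lower, none called. The smallest unadjusted p-values in these lists belonged to Htr1a (0.32 ± 0.10, adjusted p = 0.577), Met (-0.48 ± 0.15, adjusted p = 0.587) and Nkx2-2 (-0.39 ± 0.14, adjusted p = 0.767). Cyp2d22 and Pla2g4e, which the study names beside Tph2, had age differences of 0.48 ± 0.22 and 0.44 ± 0.19 (adjusted p = 0.825 for both) in VGAT;NuTRAP. The study called genes by DESeq2 at a looser cutoff of adjusted p, with a minimum log2 difference. It also removed glial genes and corrected for other batch factors. By DESeq2 here, Tph2 was at 1.18 ± 0.43 (adjusted p = 0.474), inside the study's cutoff but not past the threshold used here. Over libraries Cyp2d22 and Pla2g4e did not track Tph2, at r = -0.262 and r = -0.115 after age group and batch were removed. As a check of the label, the summed level of 8 serotonin neuron markers was 451 to 1302 CPM in VGAT;NuTRAP and 3826 to 6234 CPM in DAT;NuTRAP. That sum was made up mostly of Ddc and Slc18a2, which mark dopamine neurons as well, so the genes that set serotonin neurons apart were Tph2, Slc6a4 and Fev at the levels given above.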

How the data were processed

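Ribosome-bound mRNA from the ventral midbrain was sequenced by the authors as directional, poly(A)-selected libraries. Per the submitters' processing notes, reads were aligned to mm39 (GRCm39) with STAR 2.7.10b and counted with featureCounts, whose strand setting is not given in the sources used here. The authors deposited raw counts per gene, 1 table for each model. Here, genes were filtered with filterByExpr at a minimum count of 10, scaled by TMM and fitted with edgeR 4.0.16 (quasi-likelihood, robust) with age group and batch as terms, within a model or jointly over all 37 libraries. P-values were adjusted over all genes tested (threshold 0.05). DESeq2 1.42.0 (the authors' tool) and other filters, scalings and terms were alternatives. CPM were scaled by TMM factors over all libraries. Correlations used log2(CPM + 0.1), with Python 3 for permutations. The edgeR fit was tested on simulated data. Members and lists were chosen with earlier results of these data known. Other genes were named from the lists by smallest p in a contrast, and by the 8 highest correlations with Tph2 and Slc22a3. Groups followed the genotype, age and sex labels. Same-numbered libraries were not paired. Nothing in the labels says that libraries of a group share an animal. Exon lengths and positions came from GENCODE vM39, and promoters from RefSeq (GRCm38.p6).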

Additional observations from a re-analysis of the deposited data

Results flagged for a closer look

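In 20 sets of libraries (5 genes, 2 models, 2 age groups) a single library stood apart from the rest of its group 2 times, and chance alone flags about 1 group in 20. Fev reached 1.59 CPM in DAT;NuTRAP young female replicate 3, with the next of 10 young libraries at 0.733 CPM. Slc22a3 reached 3.76 CPM in DAT;NuTRAP old female replicate 4, with the next of 9 old libraries at 1.73 CPM.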

How the results depend on the processing

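Of 184 values of the 4 genes under other filters, scalings, terms and single batches, 171 kept their direction and their side of the threshold. With 1 library left out, 554 of 573 did. Fits of Fev and Slc22a3 within a sex or for the age by model term were not counted. For the correlations of Tph2 with Slc6a4, Tph2 with Fev and Fev with Slc22a3, 28 of 41 alternatives did. For the other 7 pairs the sign changed in 11 of 49 alternatives in VGAT;NuTRAP and 4 of 46 in DAT;NuTRAP. None of these alternatives passed the threshold. Same-numbered libraries shared only a number (6 of 17 pairs correlated above 0.1, from -0.185 to 0.41). With a replicate block the VGAT;NuTRAP age difference of Tph2 was 1.35 (adjusted p = 0.0107), and in DAT;NuTRAP the block gave 0.21 for Slc6a4, -0.14 for Slc22a3 and, in females, -0.26 for Tph2. Within the first batch the model difference of Tph2 in young mice was -1.73 (adjusted p = 0.136), Slc22a3 was at -0.88 for age in VGAT;NuTRAP and at -0.69 between models in old mice, and r of Tph2 with Slc6a4 in VGAT;NuTRAP was 0.834 (adjusted p = 0.167). There r of Fev with Slc22a3 was -0.499 in VGAT;NuTRAP and 0.118 in DAT;NuTRAP. Within the second batch Slc6a4 was at 0.41 for age in DAT;NuTRAP, Fev at -0.0669 between models in young mice, and r of Tph2 with Fev in VGAT;NuTRAP was -0.0393, or -0.0637 after age and batch were removed. Without mice of other ages Slc6a4 was at 1.49 for age in DAT;NuTRAP. A filter at 30 gave -2.36 for Slc6a4 between models in young mice (adjusted p = 0.0482), and library size as a covariate gave 0.0014 for Fev in old mice. The causes were not tested.

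With 1 library left out, Slc6a4 between models in young mice ran from -2.94 to -0.78 (adjusted p from 0.034 to 0.548), its age by model term from -0.27 to 2.43 and its age difference in DAT;NuTRAP from -1.06 to 1.49, the ends at -0.78, -0.27 and 1.49 being without DAT;NuTRAP young male replicate 1. Fev between models ran from -0.30 to 0.80 in young and from -0.37 to 0.35 in old mice. Slc22a3 for age ran from -0.16 to 0.56 in DAT;NuTRAP and from -0.0552 to 0.231 in VGAT;NuTRAP, and Tph2 in DAT;NuTRAP females from -0.16 to 0.82.

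Genes called with age in VGAT;NuTRAP numbered 4, against 0 in the first batch alone, 52 in the second, 9 without a filter, 1 without the batch term, 8 with sex as a covariate, 7 with the replicate block, 23 by DESeq2 and 2 to 7 with 1 library left out. In DAT;NuTRAP they numbered 1, against 4 in the first batch alone, 12 by DESeq2 and 0 to 2 with 1 library left out. In VGAT;NuTRAP females there were 5, against 2 without the batch term, 23 by DESeq2 and 4 to 20 with 1 library left out, and in males 5, against 0, 19 and 0 to 4. In DAT;NuTRAP 0 were called in either sex, against 31 by DESeq2 in females and 7 in males, and up to 9 and 1 with 1 library left out. The first batch alone gave 5373 calls between models in young mice, against 8407, and 4651 in old mice, against 7907, and 1 gene for the age by model term.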
